A study of Mus musculus with 8 samples.

Results

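The endoplasmic reticulum (ER) chaperone and unfolded protein response genes are a list of 38 genes for chaperones, disulfide isomerases, ER-associated degradation (ERAD), stress sensors and the entry machinery of secreted proteins. They were taken by symbol from a table of 24054 named genes, and all 38 had a row and passed the filter on low counts, as did 11291 genes in all. PolyA RNA was sequenced from WEHI-231-derived mouse immature B cell lines in 8 libraries, 2 per group. The groups were the stable line WEHI-miR-148a after 14 h of anti-IgM at 2 ug/ml, the same line unstimulated, the stable line WEHI-control after the same anti-IgM treatment, and WEHI-control unstimulated. WEHI-231 is a B cell lymphoma line that carries surface IgM, and anti-IgM crosslinks that receptor. How each line was made, whether it is 1 clone and whether the 2 libraries of a group came from separate cultures is not stated in the sources used here. The p-values therefore reflect no more than the differences among these 8 libraries, and these may be technical.

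Secreted and membrane proteins enter the ER through the Sec61 channel, lose their signal peptide, receive sugar chains and are folded by chaperones and disulfide isomerases. Proteins that fail to fold are sent back to the cytosol and degraded by the proteasome, the process called ERAD. When unfolded proteins build up, the sensors Ern1 (IRE1), Eif2ak3 (PERK) and Atf6 start the unfolded protein response, which raises the genes of folding and ERAD through the factors XBP1, ATF4 and cleaved ATF6. B cells are known to expand this machinery as they become antibody-secreting plasma cells.

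Short promoter sequences known to mediate that control are the ER stress response element (ERSE: CCAAT, any 9 bases, then CCACG), ERSE-II (ATTGG, any base, then CCACG) and the core of the unfolded protein response element (UPRE: TGACGTGG). Both strands of the RefSeq promoters (GRCm38.p6, 250 bases before to 50 after the annotated start) were searched, and 31 of the 38 genes had a promoter in that table. ERSE was present in 8 of the 31 genes (25.8%), against 37 of 27025 genes in the whole table (0.137%). The 8 genes were Hspa5, Hsp90b1, Calr, Canx, Pdia6, Dnajc3, Syvn1 and Derl3, and Hsp90b1 held 2 matches. ERSE-II was present in Dnajb11 and Herpud1 (6.45% of the 31, against 0.0444% of all genes) and the UPRE core in Txndc5 (3.23%, against 0.714%). For Txndc5 the match lies in promoter 3 of the 3 listed for that gene, and in no other of them. No matches overlapped in these promoters. These motifs are known from genes of this kind, so the higher shares are a description and not evidence from these data. A match is a stretch of letters and was not tested for binding. The windows of 6 genes are shown because their transcripts give the contrasts described further on: genes called lower with anti-IgM in both lines (Herpud1, Txndc5) or in the control line (Hspa5, Hsp90b1), 1 called higher in the miR-148a line (Derl3) and 1 called in neither line (Syvn1). Each is written 5′ to 3′ on the strand of the gene, with the motif in capitals; a motif on the opposite strand reads as its reverse complement.
Hspa5, chr2:34771995-34772073 (+), ERSE: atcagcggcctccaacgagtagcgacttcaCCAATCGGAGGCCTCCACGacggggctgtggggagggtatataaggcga
Hsp90b1, chr10:86705608-86705686 (-), ERSE: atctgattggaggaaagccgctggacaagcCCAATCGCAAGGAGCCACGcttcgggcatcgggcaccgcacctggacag
Hsp90b1, chr10:86705503-86705581 (-), ERSE on the opposite strand: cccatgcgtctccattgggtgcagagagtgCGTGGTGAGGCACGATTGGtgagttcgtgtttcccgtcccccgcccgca
Herpud1, chr8:94386347-94386417 (+), ERSE-II: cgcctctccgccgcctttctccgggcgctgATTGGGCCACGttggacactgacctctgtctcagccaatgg
Txndc5, chr13:38528015-38528082 (-), UPRE core: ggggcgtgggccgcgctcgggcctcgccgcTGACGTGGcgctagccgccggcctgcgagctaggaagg
Derl3, chr10:75893212-75893290 (+), ERSE on the opposite strand: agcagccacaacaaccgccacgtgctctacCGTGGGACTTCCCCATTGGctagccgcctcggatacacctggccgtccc
Syvn1, chr19:6046502-6046580 (+), ERSE: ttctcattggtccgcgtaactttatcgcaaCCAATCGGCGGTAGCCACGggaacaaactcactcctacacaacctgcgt

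**Figure D1:**
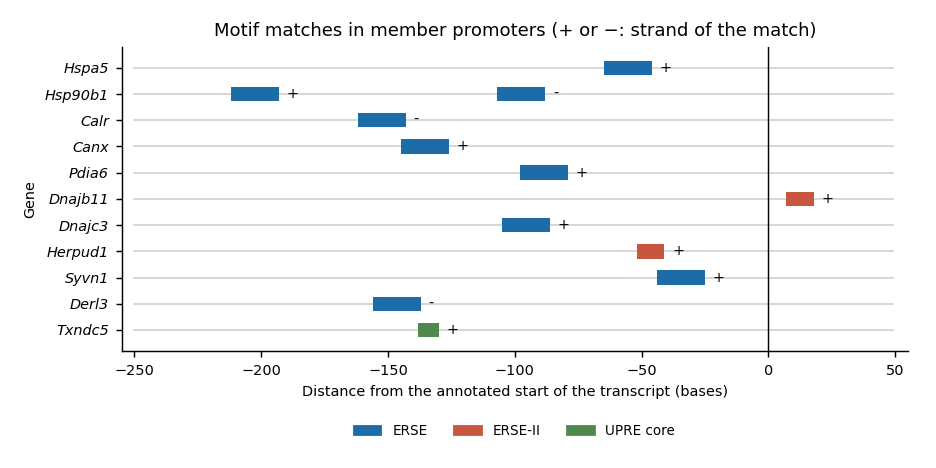
Position of each motif match in the promoters of the 11 genes that hold one, as bases from the annotated transcript start (0, vertical line), with the strand of the match beside it. All matches but 1 lie before the start, and that of Dnajb11 lies 7 to 17 bases after it.

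The second line is named for miR-148a, a microRNA that represses transcripts which pair with its seed, bases 2 to 8. The mature RefSeq sequence (GRCm38.p6, chr6:51269829-51269850, minus strand) is shown with the seed in capitals, above sites in the longest GENCODE 3′ UTR (GRCm38) of Pdia3, which differed between the lines, and of Hsp90b1 and Canx. In the sites the capitals mark the bases that pair with the seed and, in Canx, the A that follows them.
mmu-miR-148a-3p: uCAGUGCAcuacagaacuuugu
Pdia3, chr2:121437804-121437826 (+): aaactgtttcttagcTGCACTGt
Hsp90b1, chr10:86690989-86691011 (-): agcctccttctccccTGCACTGt
Canx, chr11:50294714-50294736 (-): aatgatactattcctTGCACTGA
Such a site was present in 10 of the 38 genes (26.3%), against 2670 of 21112 genes with a 3′ UTR (12.6%). These shares take no account of 3′ UTR length, which ran from 171 bases (Sec11c) to 8338 bases (Ssr1) in the 38. All genes with a 3′ UTR were counted, whether measured here or not. The genes shown are examples, and their log2 fold changes (miR-148a line over control line) were below 0 in both conditions. For Hsp90b1 with anti-IgM, however, the libraries of the lines overlapped (-0.14, standard error 0.14). The other genes with a site were Hspa5 (starting at base 2 of the 3′ UTR, next to the stop codon), Manf, Edem1, Ern1, Atf6, Ssr1 and Ostc. Of these, Ern1, Edem1 and Ssr1 hold 2 sites each, and the 2 in Ern1 overlap, starting at bases 1391 and 1396 of the 3′ UTR. Ern1 was above 0 in both conditions (0.18 with anti-IgM, 0.47 unstimulated). Edem1 was above 0 with anti-IgM only, and the rest were below 0 in both. PolyA libraries do not measure the microRNA itself.

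Levels were compared between genes per length, as CPM (each count divided by its scaled library size, with TMM factors to correct for composition) per kb of exon, averaged over the 8 libraries. The level was highest for Hsp90b1 (914 CPM per kb), the ER member of the HSP90 family, and next came Calr (546), Hspa5 (476), Pdia4 (443), Pdia6 (337), Pdia3 (304) and Canx (269). The ranges over libraries of neighbours in that order overlapped: Hsp90b1 ran from 628 to 1304 CPM per kb, and Calr from 423 to 724. The ERAD genes lay between 10.9 (Derl2) and 76.9 CPM per kb (Syvn1), and the sensors at the low end, with Ern1 last at 2.09 and Eif2ak3 next to last at 9.84. The smallest count of any of the 38 genes in a library was 83, in Ern1.

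**Figure D2:**
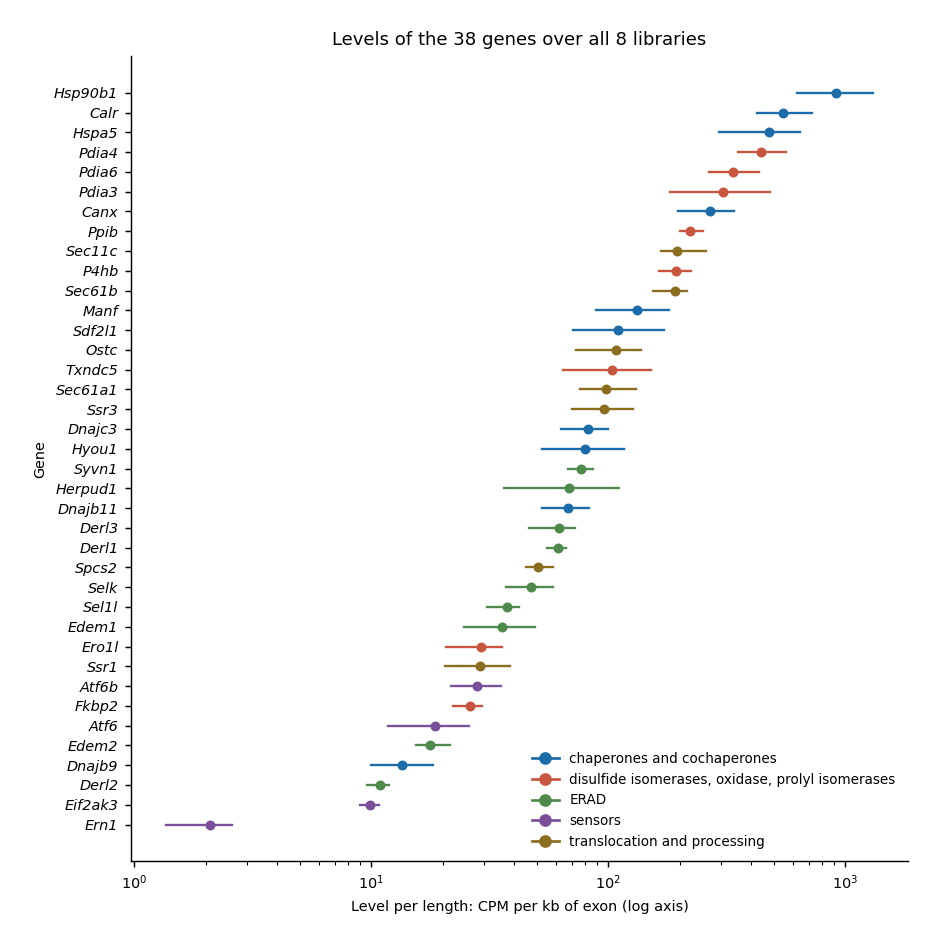
Mean level of each of the 38 genes in CPM per kb of exon on a log axis (points), with the lowest and highest of the 8 libraries (lines) and the role in colour. Chaperones and isomerases fill the upper end, from Hsp90b1 at 914, and Ern1 is lowest at 2.09 CPM per kb.

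The summed level of the 38 genes in the miR-148a line was 13760 and 11380 CPM with anti-IgM and 14880 and 14820 CPM unstimulated. In the control line it was 14110 and 14330 CPM with anti-IgM and 19790 and 18970 CPM unstimulated. The unstimulated control libraries thus stood above the other 6. Depth ran from 5797035 to 18617609 counts per library, and 3 counts correspond to 0.166 to 0.502 CPM. Every library with anti-IgM was shallower than every unstimulated one (at most 11324320 counts, against at least 11366583). The effect of this on the results was not tested. The B lineage markers were present in every library, 7 of 7 with summed levels of 1903 to 2702 CPM, and markers of T cells, myeloid cells, fibroblasts and erythroid cells summed to at most 2.40 CPM per list, with Lyz2, S100a8 and S100a9 at 0. Of the 6 plasma cell markers, Irf4 and Mzb1 made up nearly all of the sum, which was 363 to 407 CPM with anti-IgM and 702 to 723 CPM unstimulated in the miR-148a line, and 416 to 457 CPM with anti-IgM and 716 to 850 CPM unstimulated in the control line. Prdm1 and Tnfrsf17 were at or below 0.165 CPM in every library. The part of this marker change in the results below was not tested, and in bulk RNA fewer cells of a type and less RNA per cell cannot be told apart.

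In both lines, anti-IgM lowered part of the folding and ERAD genes, with Herpud1 and Txndc5 falling most, and raised Atf6. In the miR-148a line 8 of the 38 genes were called lower (21.1%) and 3 higher, by edgeR's quasi-likelihood test with adjusted p under 0.05, where 14.0% of all genes tested were called lower and 14.7% higher. In the control line 16 were called lower (42.1%) and 1 higher, where 7.45% of all genes tested were called lower and 9.60% higher. The median log2 fold change of the 38 was -0.21 in the miR-148a line and -0.34 in the control line, and over all genes it was 0.00 in the miR-148a line and 0.01 in the control line. Both libraries with anti-IgM lay below both without for 20 of the 38 genes in the miR-148a line (32.5% of all genes) and for 27 in the control line (28.3% of all genes).

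With the replicate number, which marks the sequencing run, as a block, 18 genes were called lower and 3 higher in the miR-148a line (23.3% and 22.8% of all genes) and 23 lower and 1 higher in the control line (17.2% and 17.6%). Single libraries moved these counts. In the miR-148a line the count of lower genes was 16 without anti-IgM replicate 1 (14.4% of all genes called lower). It was 4 without anti-IgM replicate 2 (6.32% of all genes) and 4 without unstimulated replicate 1 or 2 (5.97% and 8.34% of all genes). The count of higher genes in the miR-148a line was 1 without unstimulated replicate 1 (6.83% of all genes). In the control line the count of lower genes was 4 and 7 without anti-IgM replicate 1 and 2 (173 of all 11551 genes tested, and 4.58% of all genes), and 6 and 3 without unstimulated replicate 1 and 2 (3.08% and 1.57% of all genes). In the miR-148a line the calls that held under all 13 other settings were Txndc5, Ero1l, Herpud1, Edem1 (lower) and Atf6 (higher). In the control line they were Pdia4, Txndc5, Herpud1 (lower) and Atf6 (higher). Every other call was lost under 3 to 6 settings in the miR-148a line and 1 to 6 in the control line. Canx and Sel1l were lost under 6 in each line. Hspa5 and Dnajb11 were also lost under 6 in the control line, and Hsp90b1, Dnajc3, Manf, Pdia6, Ero1l and Ssr1 there under 4.

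**Figure D3:**
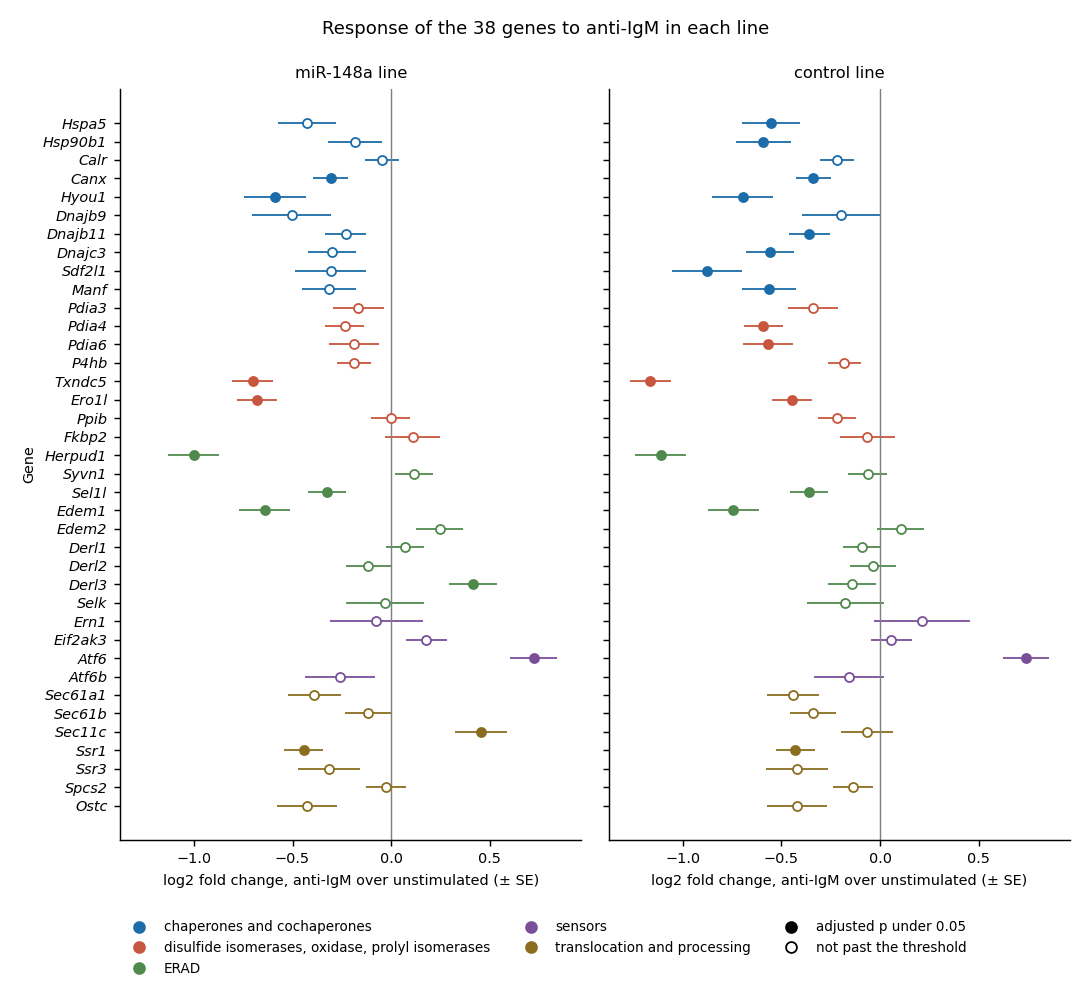
Log2 fold change of each gene, anti-IgM over unstimulated, with its standard error, in the miR-148a line (left) and the control line (right), grouped by role in colour; filled points passed an adjusted p of 0.05. Herpud1 and Txndc5 lie farthest to the left and Atf6 farthest to the right in both panels.

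Among chaperones and cochaperones, 2 of 10 were called lower in the miR-148a line (7 with the replicate block). In the control line it was 8 of 10 (9 with the block), and none was higher in either. For this and the following roles, the shares of all genes called lower were 14.0% in the miR-148a line and 7.45% in the control line. With the block they were 23.3% and 17.2%. Hspa5 (BiP), the HSP70 chaperone of the ER lumen, had 1581 and 1099 CPM with anti-IgM and 1852 and 1754 CPM unstimulated in the miR-148a line. In the control line it had 1586 and 1664 CPM with anti-IgM and 2428 and 2343 CPM unstimulated. The groups did not overlap in either line. The difference was -0.43 ± 0.15 (log2 fold change ± SE) in the miR-148a line, where it missed the threshold (adjusted p = 0.0568, 0.00326 with the block), and Hspa5 fell by 0.55 ± 0.15 in the control line (adjusted p = 0.0342).

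Hsp90b1 had 2445 and 1774 CPM with anti-IgM and 2422 and 2370 CPM unstimulated in the miR-148a line. The control line gave 2386 and 2262 CPM with anti-IgM and 3684 and 3315 CPM unstimulated. The 2 groups of the miR-148a line overlapped (-0.18 ± 0.14, adjusted p = 0.354), and those of the control line did not (-0.59 ± 0.14, adjusted p = 0.0219). Sdf2l1, a partner of the cochaperone Dnajb11, stood at 107 and 89.5 CPM with anti-IgM and 111 and 131 CPM unstimulated in the miR-148a line. It had 78.7 and 108 CPM with anti-IgM and 155 and 191 CPM unstimulated in the control line. Its call was in the control line (-0.88 ± 0.18, adjusted p = 0.0126), and the miR-148a line gave -0.31 ± 0.18 (adjusted p = 0.230).

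Hyou1, a nucleotide exchange factor of BiP, and Canx, the membrane lectin chaperone, were called lower in both lines. Neither call held under all 13 other settings in either line. Hyou1 had 297 and 252 CPM with anti-IgM and 399 and 426 CPM unstimulated in the miR-148a line (-0.59 ± 0.16, adjusted p = 0.0214). It had 268 and 365 CPM with anti-IgM and 473 and 557 CPM unstimulated in the control line (-0.70 ± 0.16, adjusted p = 0.0182). For Canx the change was -0.31 ± 0.09 (adjusted p = 0.0311) in the miR-148a line and -0.34 ± 0.09 (adjusted p = 0.0334) in the control line. The J-domain cochaperones Dnajb11 and Dnajc3 and the BiP-binding factor Manf passed the test in the control line, at -0.36, -0.56 and -0.56, and their values in the miR-148a line were -0.23, -0.30 and -0.31 (adjusted p 0.0975 to 0.127, each under 0.05 with the block). Calr, the soluble lectin chaperone, and the cochaperone Dnajb9 were called in neither line; with the block Calr was called lower in the control line and Dnajb9 in the miR-148a line.

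Of the disulfide isomerases, the oxidase and the prolyl isomerases, 2 of 8 were called lower in the miR-148a line (4 with the block) and 4 of 8 in the control line (6 with the block). Txndc5 (ERp46), an oxidoreductase that forms disulfide bonds, had 274 and 240 CPM with anti-IgM and 394 and 440 CPM unstimulated in the miR-148a line. The control line gave 217 and 230 CPM with anti-IgM and 491 and 510 CPM unstimulated. Anti-IgM libraries were therefore well below unstimulated ones in both lines. Txndc5 fell by 0.70 ± 0.10 in the miR-148a line (adjusted p = 0.00173) and by 1.16 ± 0.10 in the control line (adjusted p = 0.000629).

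Ero1l, the oxidase that recharges the disulfide isomerases, had 102 and 91.2 CPM with anti-IgM and 157 and 152 CPM unstimulated in the miR-148a line. It had 111 and 110 CPM with anti-IgM and 157 and 144 CPM unstimulated in the control line. It was lower with anti-IgM in both, at -0.68 ± 0.10 in the miR-148a line (adjusted p = 0.00193) and -0.45 ± 0.10 in the control line (adjusted p = 0.0206). The isomerases Pdia4 and Pdia6 passed the test in the control line, at -0.59 ± 0.10 and -0.57 ± 0.13, and in the miR-148a line stood at -0.24 ± 0.10 and -0.19 ± 0.12 (adjusted p = 0.109 and 0.293); with the block Pdia4 was called lower there as well (adjusted p = 0.0238). Pdia3, P4hb, the cyclophilin Ppib and Fkbp2 were called in neither line, at -0.19 to 0.11 in the miR-148a line and -0.34 to -0.06 in the control line; with the block P4hb was called lower in the miR-148a line, and Pdia3 and Ppib in the control line.

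ERAD genes divided by member: 3 of 9 were called lower in each line, Herpud1, Sel1l and Edem1 in both, and Derl3 was called higher in the miR-148a line, with the same calls under the block. Herpud1, a membrane component of the HRD1 complex, had 84.0 and 70.8 CPM with anti-IgM and 142.7 and 166 CPM unstimulated in the miR-148a line. The control line had 90.4 and 100 CPM with anti-IgM and 196 and 217 CPM unstimulated. The anti-IgM libraries lay below the unstimulated ones in both lines, with no overlap. Herpud1 fell by 1.0005 ± 0.13 in the miR-148a line (adjusted p = 0.00108) and by 1.11 ± 0.13 in the control line (adjusted p = 0.00163).

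Edem1, which trims mannose from glycoproteins bound for degradation, had 166 and 153 CPM with anti-IgM and 231 and 265 CPM unstimulated in the miR-148a line. The control line had 172 and 144 CPM with anti-IgM and 243 and 285 CPM unstimulated. Edem1 was lower in each, at -0.64 ± 0.13 (adjusted p = 0.00666) in the miR-148a line and -0.74 ± 0.13 (adjusted p = 0.00702) in the control line; without unstimulated control replicate 2 the adjusted p in the control line was 0.0526. Sel1l, the partner of the ubiquitin ligase Syvn1, was lower at -0.32 ± 0.10 in the miR-148a line (adjusted p = 0.0340) and -0.36 ± 0.10 in the control line (adjusted p = 0.0356). Syvn1 (HRD1) itself had 293 and 315 CPM with anti-IgM and 275 and 286 CPM unstimulated in the miR-148a line. Syvn1 in the control line had 249 and 282 CPM with anti-IgM and 271 and 284 CPM unstimulated, so its groups overlapped there. Its difference was 0.12 ± 0.10 in the miR-148a line (95% interval -0.11 to 0.34, adjusted p = 0.418) and -0.06 ± 0.10 in the control line (95% interval -0.28 to 0.16, adjusted p = 0.714), neither past the threshold.

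Derl3, a derlin of the retrotranslocation step, had 84.7 and 95.2 CPM with anti-IgM and 61.4 and 73.9 CPM unstimulated in the miR-148a line. It had 84.2 and 78.3 CPM with anti-IgM and 92.0 and 86.9 CPM unstimulated in the control line. Derl3 was higher with anti-IgM in the miR-148a line (0.41 ± 0.12, adjusted p = 0.0315), and the value in the control line was -0.14 ± 0.12 (adjusted p = 0.464). The call in the miR-148a line was lost without unstimulated replicate 1, without anti-IgM replicate 2 and with only the libraries compared in the fit (adjusted p up to 0.244). Derl1, Derl2, Edem2 and Selk (selenoprotein K) were called in neither line, with values between -0.18 and 0.25.

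Of the 4 sensor genes Atf6, a membrane-bound transcription factor released by cleavage, rose in both lines and the others did not pass the test. Atf6 had 141 and 164 CPM with anti-IgM and 84.8 and 99.7 CPM unstimulated in the miR-148a line. Control-line values of Atf6 were 179 and 188 CPM with anti-IgM and 108 and 112 CPM unstimulated. The groups were well apart in each line, and the rise was 0.72 ± 0.12 in the miR-148a line (adjusted p = 0.00264) and 0.74 ± 0.12 in the control line (adjusted p = 0.00513). Ern1 had 15.8 and 20.8 CPM with anti-IgM and 17.9 and 21.1 CPM unstimulated in the miR-148a line, and 13.9 and 18.4 CPM with anti-IgM and 11.1 and 17.6 CPM unstimulated in the control line. Its libraries overlapped in both lines, at -0.08 ± 0.24 in the miR-148a line and 0.21 ± 0.24 in the control line. Eif2ak3 stood at 0.18 ± 0.10 in the miR-148a line and 0.06 ± 0.10 in the control line, and Atf6b, the relative of Atf6, at -0.26 ± 0.18 in the miR-148a line and -0.16 ± 0.18 in the control line, with adjusted p of 0.233 or more.

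Among the 7 genes of translocation and processing, Ssr1, a subunit of the translocon-associated complex, was called lower in both lines and Sec11c, a catalytic subunit of signal peptidase, higher in the miR-148a line. Ssr1 had 237 and 209 CPM with anti-IgM and 300 and 306 CPM unstimulated in the miR-148a line (-0.44 ± 0.10, adjusted p = 0.0101). It had 279 and 277 CPM with anti-IgM and 393 and 356 CPM unstimulated in the control line (-0.43 ± 0.10, adjusted p = 0.0203). Sec11c was called in 1 line only. Its level was 234 and 189 CPM with anti-IgM and 158 and 150 CPM unstimulated in the miR-148a line, and 179 and 152 CPM with anti-IgM and 183 and 164 CPM unstimulated in the control line. Sec11c was higher in the miR-148a line (0.46 ± 0.13, adjusted p = 0.0305), a call lost without anti-IgM replicate 1 and without either unstimulated replicate (adjusted p up to 0.145), and overlapped in the control line (-0.07 ± 0.13, adjusted p = 0.772). The channel subunit Sec61a1, Ssr3 and the oligosaccharyltransferase subunit Ostc stood at -0.43 to -0.32 in the miR-148a line and at -0.44 to -0.42 in the control line. In the edgeR fit of all 8 libraries with the filter, TMM factors and no block, none was called (adjusted p = 0.0504 for Sec61a1 in the control line). With the block all were called lower in both lines. DESeq2's test without the block called all of them lower in the control line, and Sec61a1 and Ostc in the miR-148a line. In the control line Sec61b was called lower with the block and also without the low-count filter, but not by DESeq2's test. Spcs2, another signal peptidase subunit, was called in neither line.

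**Figure D4:**
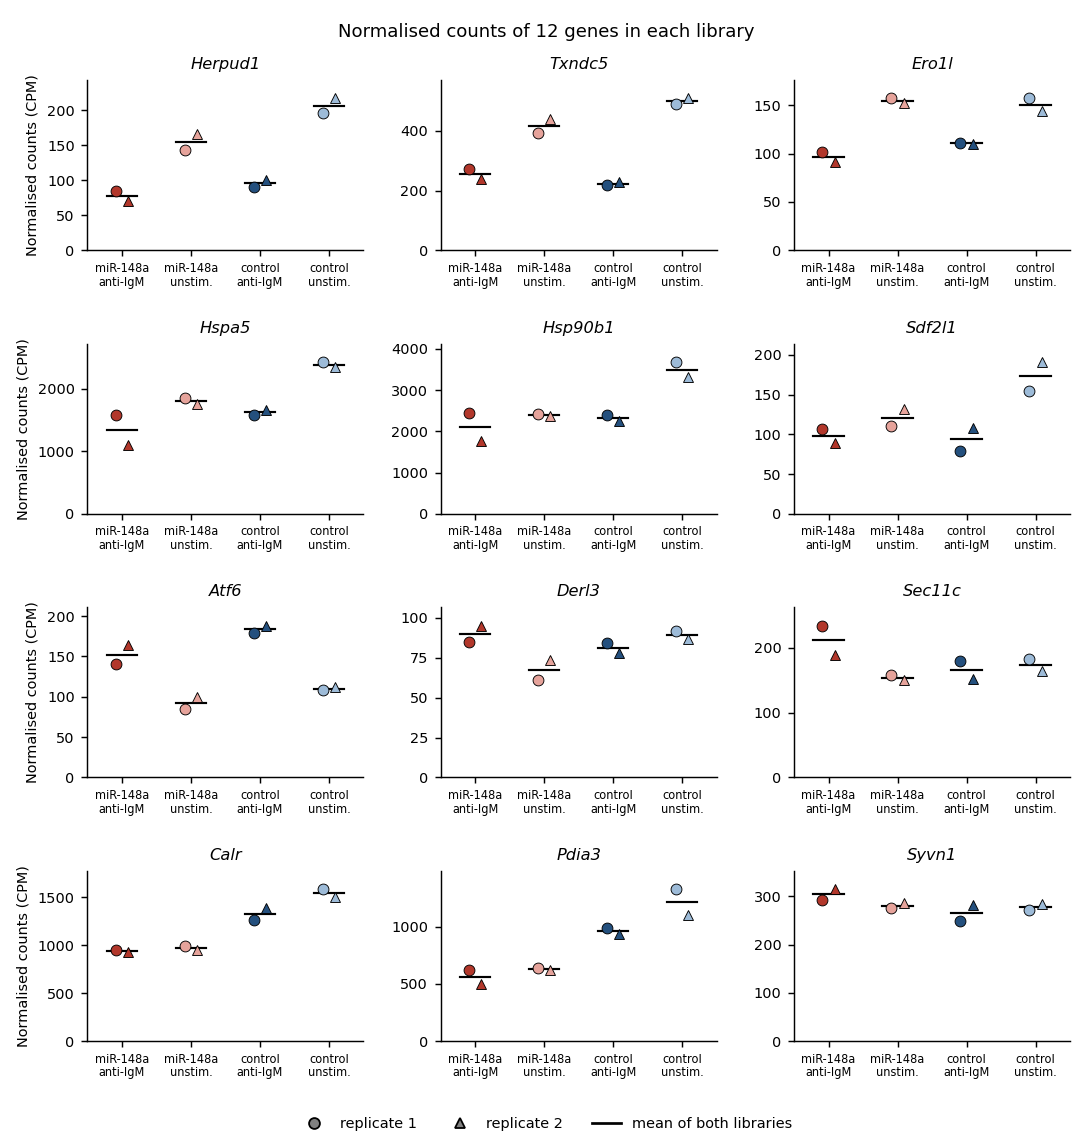
Normalised counts (CPM) of 12 genes in each library; circles are replicate 1, triangles replicate 2 and bars the mean of both, with each axis starting at 0. Herpud1, Txndc5 and Ero1l are lower and Atf6 higher with anti-IgM in both lines, and Calr and Pdia3 are lower in the miR-148a line in both conditions.

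Other genes of the pathway moved in part. For these lists too, the shares of all genes called higher and lower were 14.7% and 14.0% in the miR-148a line. In the control line they were 9.60% and 7.45%. With the block they were 22.8% and 23.3% in the miR-148a line and 17.6% and 17.2% in the control line. Of 16 measured regulators and branch targets of the unfolded protein response, 2 were called higher and 4 lower in the miR-148a line (3 and 7 with the block), and 0 higher and 6 lower in the control line (1 and 9 with the block). Atf4, the transcription factor downstream of PERK, had 269 and 198 CPM with anti-IgM and 465 and 483 CPM unstimulated in the miR-148a line, and 299 and 288 CPM with anti-IgM and 470 and 532 CPM unstimulated in the control line. Atf4 fell by 1.02 ± 0.14 in the miR-148a line (adjusted p = 0.00130) and by 0.77 ± 0.14 in the control line (adjusted p = 0.00788). Chac1 and Trib3, targets of ATF4, were lower as well, Chac1 at -2.31 ± 0.36 in the miR-148a line and -1.18 ± 0.32 in the control line, and Trib3 at -0.89 ± 0.14 in the miR-148a line and -0.52 ± 0.13 in the control line. Creb3l2, a cleaved ER transcription factor, was called lower in the control line (-0.64 ± 0.12). Xbp1, the factor spliced by IRE1, was lower in the control line (-0.38 ± 0.11, adjusted p = 0.0393) and at -0.27 ± 0.11 in the miR-148a line (adjusted p = 0.0850, 0.0177 with the block). The counts do not separate spliced from unspliced Xbp1, and Ddit3 (CHOP) was called in neither line. Other genes of this list had higher levels with anti-IgM. Creb3 had 20.2 and 19.4 CPM with anti-IgM and 12.2 and 13.7 CPM unstimulated in the miR-148a line. Tmbim6 had 507 and 550 CPM with anti-IgM and 414 and 422 CPM unstimulated there. For both genes the anti-IgM libraries also lay above the unstimulated ones in the control line.

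In the neighbouring groups of the secretory pathway, most genes did not pass the test. Of 21 other folding factors 2 were called higher and 2 lower in the miR-148a line (3 and 3 with the block), and 1 higher and 3 lower in the control line (2 and 5 with the block), among them Mzb1, which is also a plasma cell marker (-0.43 ± 0.10); Sdf2, a relative of Sdf2l1, was called higher in both (0.58 ± 0.10 in the miR-148a line, 0.43 ± 0.10 in the control line), Creld1 higher and Mogs lower in the miR-148a line (0.74 ± 0.21 and -0.71 ± 0.16), Fkbp11 lower in the control line (-0.51 ± 0.13), and Txndc11 lower in both (-0.54 ± 0.10 in each). Of 19 other ERAD genes 2 were called higher and 2 lower in the miR-148a line (5 and 4 with the block), and 0 higher and 3 lower in the control line (2 and 3 with the block). Edem3, a relative of Edem1, had 83.2 and 77.1 CPM with anti-IgM and 134 and 132 CPM unstimulated in the miR-148a line, and was called lower in both lines (-0.73 ± 0.11 in the miR-148a line, -0.72 ± 0.11 in the control line). The ubiquitin-conjugating enzyme Ube2g2 was lower in both (-0.40 ± 0.11 in the miR-148a line, -0.63 ± 0.11 in the control line), the ligase Rnf5 higher in the miR-148a line (0.60 ± 0.11), and Vimp (selenoprotein S) lower in the control line (-0.51 ± 0.13). Among 22 other subunits of translocation, signal peptidase and oligosaccharyltransferase 4 were called lower in each line and none higher, with Rpn1 (-0.44 ± 0.10 in the miR-148a line, -0.51 ± 0.10 in the control line) and Srprb (-0.63 ± 0.10 in the miR-148a line, -0.44 ± 0.10 in the control line) in both, Spcs3 in the miR-148a line and Sec63 in the control line; with the block it was 7 in the miR-148a line and 13 in the control line. The COPII coat carries folded proteins out of the ER. Of 12 genes for this coat and its assembly, 4 were called lower in the miR-148a line (7 with the block) and 2 in the control line (8 with the block). These were Sar1a (-0.52 ± 0.11 in the miR-148a line, -0.46 ± 0.11 in the control line) and Sec31a in both lines, and Sec13 and Sec24a in the miR-148a line.

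The genes with a motif were set beside those without. Of the 10 with ERSE or ERSE-II, 2 were called lower and 1 higher (Derl3) in the miR-148a line, with a median of -0.21, and 7 were called lower in the control line, with a median of -0.46. With the replicate block 5 were called lower and 1 higher in the miR-148a line, and 8 lower in the control line. Of the 21 with a promoter and neither motif, 5 were called lower in the miR-148a line, with a median of -0.19, and 7 in the control line, with a median of -0.22; with the block it was 9 in the miR-148a line and 11 in the control line. Members with ERSE or ERSE-II ranged in the control line from Herpud1 at -1.11 to Syvn1 at -0.06. Txndc5, the lowest of the 38 at -1.16, had the UPRE core in promoter 3 of its 3 and neither of the others. Over all genes tested, 14.0% were called lower and 14.7% higher in the miR-148a line (23.3% and 22.8% with the block). In the control line 7.45% were called lower (17.2% with the block). The counts by motif are a description, with no test.

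Between the lines, Calr and Pdia3 were lower in the miR-148a line in both conditions, and no other of the 38 passed the test. Calr had 948 and 923 CPM in the miR-148a line and 1262 and 1389 CPM in the control line, both with anti-IgM, and 986 and 947 CPM in the miR-148a line and 1582 and 1501 CPM in the control line, both unstimulated. Pdia3 (ERp57), the disulfide isomerase that works with calreticulin and calnexin, had 625 and 502 CPM in the miR-148a line and 990 and 935 CPM in the control line with anti-IgM, and 641 and 623 CPM in the miR-148a line and 1329 and 1102 CPM in the control line unstimulated. For both genes all 4 libraries of the miR-148a line lay below all 4 of the control line. The difference of Calr was -0.50 ± 0.09 with anti-IgM (adjusted p = 0.0277) and -0.67 ± 0.09 unstimulated (adjusted p = 0.0218). That of Pdia3 was -0.77 ± 0.13 with anti-IgM (adjusted p = 0.0243) and -0.94 ± 0.13 unstimulated (adjusted p = 0.0218), or -41.4% with anti-IgM and -48.0% unstimulated.

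The count of 2 lower stood against 1.16% of all genes with anti-IgM and 0.239% unstimulated, and 0 of the 38 were called higher, against 1.36% and 0.248%. At an unadjusted p under 0.05, 7 of the 38 were lower and 2 higher with anti-IgM (9.15% and 9.09% of all genes), and 14 were lower and 0 higher unstimulated (5.01% and 6.38% of all genes). DESeq2 called 0 higher in each condition. The unstimulated count of lower genes was 0 without any 1 of the 4 unstimulated libraries, where 0 of all genes tested were called in either direction. It was 3 without anti-IgM replicate 1 or 2 of the miR-148a line (0.390% and 0.391% of all genes). With anti-IgM the count was 0 without anti-IgM control replicate 1 or 2 (0.121% and 0% of all genes) and 0 without miR-148a anti-IgM replicate 2 (0.00868% of all genes). It was 1, Pdia3, without unstimulated miR-148a replicate 1 or 2 (0.475% and 0.476% of all genes), and without miR-148a anti-IgM replicate 1 the 2 were Pdia3 and Hspa5 (0.979% of all genes). Where the fit held only the anti-IgM libraries, neither Calr nor Pdia3 was called (0.0553% of all genes called lower).

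With the replicate block more genes differed between the unstimulated lines: 12 of the 38 were called lower and 1 higher, against 3.37% and 3.91% of all genes. By the log2 fold changes of the blocked fit, added to Calr and Pdia3 were Hspa5 (-0.40), Hsp90b1 (-0.54), Canx (-0.37), Dnajb11 (-0.29), Sdf2l1 (-0.51), Manf (-0.45), Pdia4 (-0.30), Herpud1 (-0.42), Derl3 (-0.41) and Ssr1 (-0.30), all lower in the miR-148a line, and Ern1 (0.47) higher. With anti-IgM 6 were called lower and 1 higher, against 8.24% and 7.90%: Calr, Pdia3, Canx (-0.34), P4hb (-0.23), Atf6 (-0.27) and Ssr1 (-0.32) lower, and Sec11c (0.35) higher. Without regard to the test, both libraries of the miR-148a line lay below both of the control line for 10 of the 38 genes with anti-IgM (22.1% of all genes) and for 27 unstimulated (21.2% of all genes). The median difference was -0.09 with anti-IgM and -0.22 unstimulated, and over all genes -0.01 with anti-IgM and 0.01 unstimulated.

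**Figure D5:**
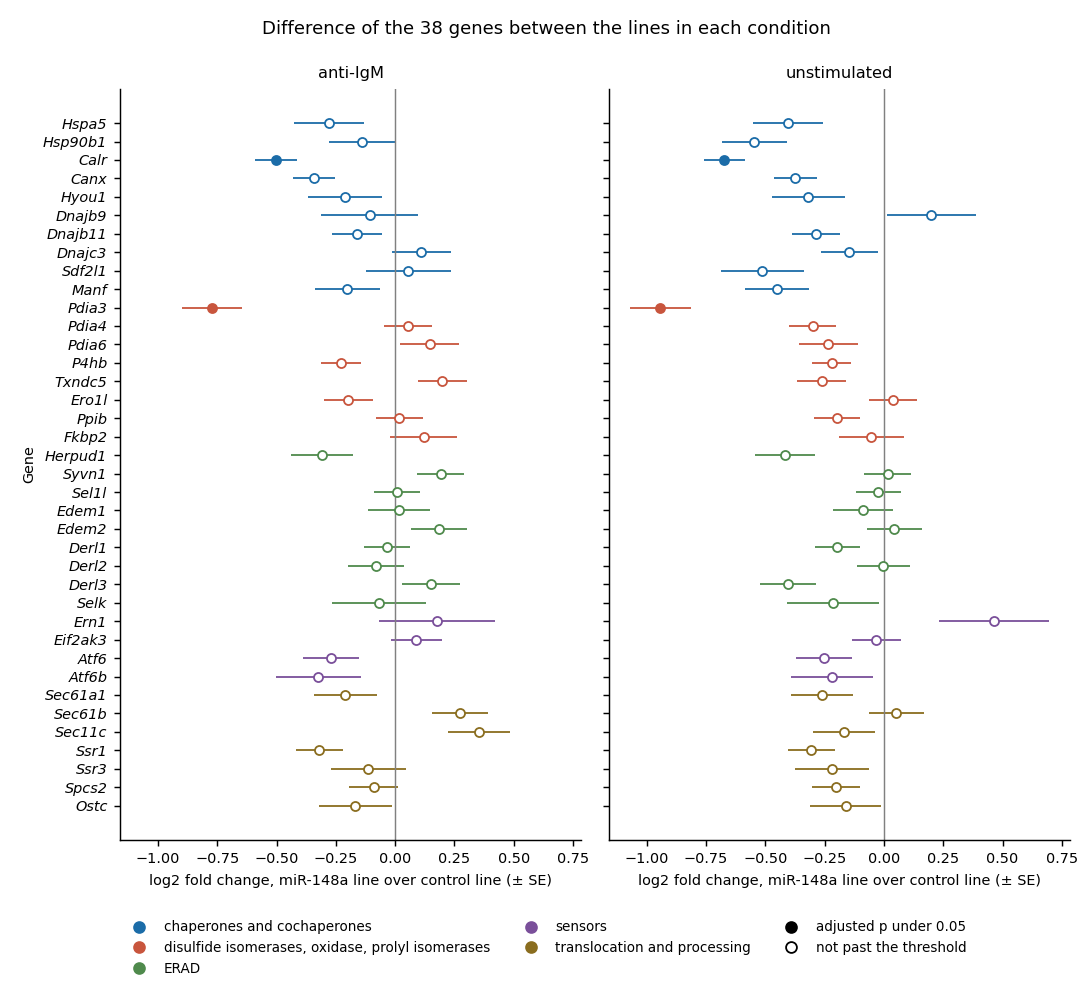
Log2 fold change of each gene, miR-148a line over control line, with its standard error, with anti-IgM (left) and unstimulated (right), grouped by role in colour; filled points passed an adjusted p of 0.05. Calr and Pdia3 are the filled points in both panels, and most of the other points lie left of 0 in the unstimulated panel.

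Of the 10 genes with a miR-148a seed site, 1 (Pdia3) was called lower in the miR-148a line in each condition, with a median of -0.24 with anti-IgM and -0.34 unstimulated. Of the 28 without a site, 1 (Calr) was called lower in each condition, with medians of -0.01 and -0.21. With the block the counts of lower genes were 4 of 10 and 2 of 28 with anti-IgM, and 6 of 10 and 6 of 28 unstimulated. Over all genes tested, 1.16% were called lower with anti-IgM and 0.239% unstimulated, or 8.24% and 3.37% with the block. Among genes with a site, Ern1 was at 0.18 with anti-IgM and 0.47 unstimulated, and Atf6 at -0.27 and -0.25. Whether any site is bound was not tested.

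Whether the lines responded differently was tested with the interaction, the anti-IgM response of the miR-148a line minus that of the control line. None of the 38 genes and none of all 11291 passed the test in either direction (0% each), and the lowest adjusted p of the 38 was 0.9996. At an unadjusted p under 0.05, 5 of the 38 were above 0 and 0 below, against 2.18% and 2.11% of all genes, and DESeq2 called 0 in each direction. The 5 were Derl3 (0.56 ± 0.17), Sec11c (0.52 ± 0.19), Txndc5 (0.46 ± 0.15), Pdia4 (0.36 ± 0.14) and Sdf2l1 (0.57 ± 0.25). Txndc5, Pdia4 and Sdf2l1 had a value nearer to 0 in the miR-148a line, and Derl3 and Sec11c were above 0 in it and below 0 in the control line. With the replicate block 0 of the 38 were called (0.0620% of all genes higher and 0.0354% lower), with Sec11c nearest at an adjusted p of 0.0734. The estimate was above 0 for 29 of the 38 genes, and above 0 within both runs for 19; the median was 0.26 within the run of replicate 1 and -0.01 within that of replicate 2. The response of the control line, the unstimulated difference between the lines and the interaction all use the unstimulated control libraries, so these values are not independent of one another.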

How the data were processed

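Values were read from a table of expected counts per gene that the authors deposited: estimates that need not be whole, without normalisation. The submitters' processing notes list TopHat2 2.0.13, Bowtie2 and cutadapt, CASAVA 1.8, Partek 6.15.0730, edgeR, and the builds GRCm38 and mm10. The role of each, the annotation and any strand setting are not stated there, so reads of overlapping or antisense genes may not have been told apart. Of 24081 rows, 27 had names turned into calendar dates (0.213% to 0.235% of counts) and were left out. Per library 9.12% to 12.4% of values had decimals, among them values of 11 of the 38 genes (Hspa5, Canx, Dnajb11, Derl2 and Ppib in every library), and all were rounded.

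Computations used R 4.3.3, edgeR 4.0.16, limma 3.58.1 and DESeq2 1.42.0. Genes were tested in edgeR with the quasi-likelihood F test, in a fit of all 8 libraries with 4 group means (filterByExpr, TMM factors), 4 residual degrees of freedom and Benjamini-Hochberg adjustment over 11291 genes at a threshold of 0.05. An exact permutation test of 2 against 2 libraries cannot go below p = 0.3333 and was not used. The number after ± is the standard error (log2 scale), n = 2 libraries per group. Replicates differed by more than sampling noise (mean chi-square per gene 9.40 to 13.6). Each run (137 for replicate 1, 143 for replicate 2) holds 1 library of every group, and same-numbered libraries deviated together for each of the 6 group pairs (Pearson's r 0.488 to 0.559 over genes, which are not independent replicates), so the numbers pair the libraries by run; blocked values stand beside each call of the 38 genes that they alter, and beside counts that they shift by over 1.5 times. Other settings tried were DESeq2 size factors, no filter, DESeq2's test, the block, only the libraries compared, and each library left out in turn. Floors of 3 counts cover counting error only. Lengths, positions and 3′ UTRs are from GENCODE vM21 (GRCm38), and promoters and the microRNA from RefSeq (GRCm38.p6).

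The 38 genes, the lists of related genes and the markers were chosen with earlier results of these data known. All 38 genes were named, and of the related lists the up to 3 called genes with the largest absolute log2 fold change in each anti-IgM comparison. Sec31a in the miR-148a line, Txndc11 there, Trib3 in the control line, Xbp1, Ddit3, Creb3 and Tmbim6 were added after their values were seen. The fit was tested on simulated data with known fold changes. Those data had no run effect, so the test does not cover the pairing of libraries by run.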

Additional observations from a re-analysis of the deposited data

How the results depend on the processing

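No call of the 38 genes changed direction under any setting. With a library left out the counts of lower genes were 4 to 16 in the miR-148a line and 3 to 18 in the control line for the response to anti-IgM, 0 to 2 between the anti-IgM lines and 0 to 3 between the unstimulated lines. Counts of higher genes were 1 to 3 in the miR-148a line and 1 in the control line, and 0 between the lines and for the interaction. With the replicate block the counts of lower genes were 18 for the response of the miR-148a line and 23 for that of the control line, 6 between the anti-IgM lines and 12 between the unstimulated lines, with 1 higher in each of these last comparisons. DESeq2 called 4 lower between the unstimulated lines, and the fit of only the anti-IgM libraries called 0 lower between them. The causes were not tested, beyond the fewer samples in each fit. With 2 libraries a group, a gene missing the threshold is not shown to be unaffected.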

Other observations

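In the miR-148a line, anti-IgM replicate 2 was lower than replicate 1 for 31 of the 38 genes, with a median log2 difference of -0.19. The same count was 19 of 38 in the unstimulated miR-148a line, 17 in the control line with anti-IgM and 25 in the unstimulated control line, with medians of -0.01, 0.03 and -0.05. Hspa5 and Hsp90b1 were the clearest cases by level, Hspa5 at 1581 and 1099 CPM and Hsp90b1 at 2445 and 1774 CPM in replicates 1 and 2. Both runs gave a negative median for the 38 genes in each response: -0.11 and -0.34 in the runs of replicates 1 and 2 for the miR-148a line, and -0.39 and -0.29 for the control line.

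Between runs, 11 of the 38 genes were lower in the run of replicate 2 in every group, among them Selk, Ssr3, Ostc, Sec11c and Manf, and 5 were higher in every group: Ern1, Atf6b, Fkbp2, Atf6 and Syvn1. These are values of the libraries, and what differed between the runs was not tested.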
